A study of Schizosaccharomyces pombe with 4 samples.

Results

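The 9 genes hsp9, hsp16, ctt1, gpx1, gpd1, tps1, ntp1, zym1 and cta3 of the fission yeast Schizosaccharomyces pombe were taken by their systematic identifiers from the 7049 genes of a read count table, as genes known to respond to environmental stress. All 9 passed the filter on low counts. RNA depleted of ribosomal RNA was sequenced from 2 wild-type libraries and 2 delta4dus libraries, the latter from a strain in which all 4 genes for dihydrouridine synthases, enzymes that reduce uridine in RNA, are deleted. Cells of both strains came from cultures in YES, a rich medium, kept at 32 °C and harvested at an optical density (595 nm) of about 0.5, and the labels name no applied stress. The sources used here give no further allele, marker or mating type of the strains. They also leave unsaid whether the 2 libraries of a genotype came from separate cultures, so p-values measure the spread between these libraries, which may be technical.

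Fission yeast meets heat, salt, oxidants and starvation with a shared set of induced genes. The stress-activated kinase Sty1, activated by the kinase Wis1, drives most of this response through the bZIP factor Atf1 and its partner Pcr1, which bind DNA elements with the core TGACGT. Heat shock factor Hsf1 and the oxidant-sensing factor Pap1 add to it at some of the genes. Among the genes described here, hsp9 and hsp16 encode heat shock proteins. Products of the others remove peroxide (ctt1, gpx1), make or use osmolytes and trehalose (gpd1, tps1, ntp1) and handle metals and ions (zym1, cta3).

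Libraries held 264948323 to 495098038 counts in all and 40203853 to 59273688 without ribosomal RNA genes. The second delta4dus library stood apart, with 90.68% of its counts on ribosomal RNA genes, against 84.69% to 86.39% in the others, and a TMM factor of 0.662, against 1.094 to 1.227. Without it the log2 fold change was −0.66 for hsp9, 1.61 for cta3, −0.50 for zym1 and −0.27 for gpx1. As a check of the labels, all 4 dus genes were lower in both delta4dus libraries than in both wild-type libraries, with log2 fold changes of −3.86 (dus1), −2.95 (dus2), −1.56 (dus3) and −1.23 (dus4). In the edgeR quasi-likelihood fit, after Benjamini-Hochberg adjustment over all genes, the first 3 passed (adjusted p = 0.00418, 0.000224 and 0.000818) and dus4 did not (0.626). Normalised counts here and below are counts divided by the relative library size after TMM scaling. Reads remained at the dus genes in delta4dus. Normalised counts of dus3 were 3892 and 3867 for wild-type, against 1287 and 1341 for delta4dus. Those of dus4 were 532.5 and 562 for wild-type, against 309 and 153 for delta4dus. Where in these genes the remaining reads lie was not tested. In this bulk RNA a change in the share of cells that express a gene and a change in its RNA per cell cannot be told apart.

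Of the genes that hold at least 1 known regulatory word of the response, hsp16 and ntp1 are not printed. The bases just before the annotated transcript starts are shown for the other 5, which include hsp9 and cta3. They are read from the RefSeq genome and annotation of build ASM294v3, 5′ to 3′ on the strand of the gene, and end at the base before the start. Capitals mark matches, on either strand, to the Atf1-Pcr1 core TGACGT, which reads ACGTCA on the other strand, to the palindrome TTACGTAA bound by Pap1, to the stress response word CCCCT, which reads AGGGG on the other strand, and to the heat shock word GAANNTTC.
hsp9 (chrI:5320677-5320876, minus strand): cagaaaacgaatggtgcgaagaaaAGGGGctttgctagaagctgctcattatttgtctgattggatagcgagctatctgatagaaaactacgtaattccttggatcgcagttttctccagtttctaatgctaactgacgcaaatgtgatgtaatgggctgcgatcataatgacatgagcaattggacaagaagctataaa
ctt1 (chrIII:58834-59033, minus strand): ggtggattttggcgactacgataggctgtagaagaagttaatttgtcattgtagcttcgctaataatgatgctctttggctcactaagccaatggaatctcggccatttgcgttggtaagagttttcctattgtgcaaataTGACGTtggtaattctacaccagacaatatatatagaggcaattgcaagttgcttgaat
gpx1 (chrII:2789588-2789787, minus strand): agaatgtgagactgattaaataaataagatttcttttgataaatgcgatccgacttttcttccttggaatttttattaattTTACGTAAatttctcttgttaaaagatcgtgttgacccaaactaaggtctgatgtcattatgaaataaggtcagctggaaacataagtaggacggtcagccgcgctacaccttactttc
gpd1 (chrII:4035366-4035565, plus strand): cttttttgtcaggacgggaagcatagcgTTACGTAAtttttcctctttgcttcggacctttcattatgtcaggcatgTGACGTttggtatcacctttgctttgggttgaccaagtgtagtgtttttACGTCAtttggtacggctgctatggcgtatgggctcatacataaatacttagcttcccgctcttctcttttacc
cta3 (chrII:607033-607232, plus strand): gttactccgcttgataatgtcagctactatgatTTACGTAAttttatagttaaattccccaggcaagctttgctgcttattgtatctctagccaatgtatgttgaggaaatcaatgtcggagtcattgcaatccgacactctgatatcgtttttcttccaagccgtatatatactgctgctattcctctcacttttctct

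Within 300 bases before the start, TGACGT was found at 3 of the 9 genes, ctt1, gpd1 and ntp1, and in 6.0% of the 5112 coding genes searched. It lay 59 to 54 bases before the start of ctt1, 123 to 118 and again 74 to 69 bases before that of gpd1, and 69 to 64 bases before that of ntp1. TTACGTAA was found at cta3, gpd1 and gpx1, against 0.5% of all coding genes. The matches at the 9 genes did not overlap one another. GAANNTTC was found at hsp16 alone among the 9 genes (11.3% of all), and CCCCT at hsp9 alone (10.0%). A match is a description of these letters and not a measured site. No word was found at tps1 or zym1.

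Levels of the 9 genes spanned a 724-fold range in wild-type when counts were taken per kilobase of gene length. The order by the wild-type mean per kilobase was gpd1 (28639), hsp9 (18734), hsp16 (5535), tps1 (5423), gpx1 (5332.5), ntp1 (2020), ctt1 (1135), zym1 (719) and cta3 (39.5). The median coding gene lay at 1115. The values of hsp16, tps1 and gpx1 overlapped between the wild-type libraries, so their order is not resolved. Among 5059 coding genes tested, gpd1 and hsp9 lay in the top 4.8% by this level, and cta3 lay at 98.4%, among the lowest. Transcripts of hsp9, hsp16, gpd1, tps1 and gpx1 were thus among the more abundant ones in cultures with no applied stress, and cta3 among the least abundant.

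**Figure D1:**
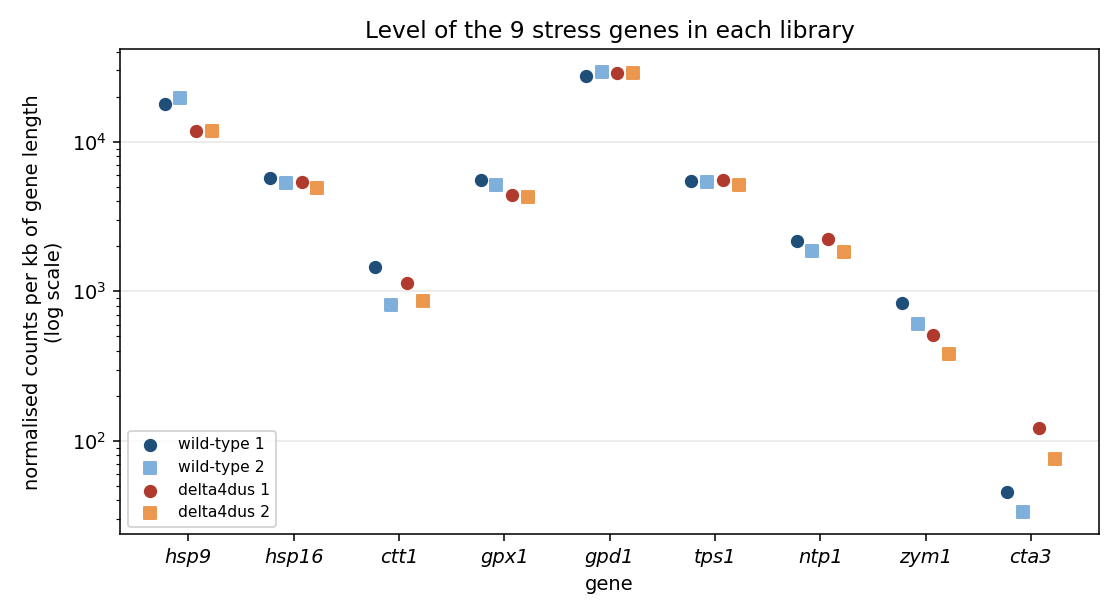
Normalised counts per kilobase of gene length on a log axis for the 9 genes, 1 point per library. The 2 delta4dus libraries lie below both wild-type libraries for hsp9, gpx1 and zym1 and above both for cta3, and the groups overlap for the other 5 genes.

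None of the 9 genes passed edgeR's test between the genotypes at an adjusted p under 0.05, a threshold that 5 of all 6813 genes tested (0.0734%) met. At an unadjusted p under 0.05 there were 4 of the 9, hsp9, cta3, gpx1 and zym1, against 7.57% of all genes. DESeq2 called 2 of the 9, hsp9 and cta3, where it called 0.802% of all genes with an adjusted p. The authors' deposited table holds the same 2 of the 9 under that threshold, where 0.716% of its genes are. An edgeR fit with a replicate block called 4 of the 9, hsp9, cta3, zym1 and gpx1, and 12.1% of all genes. Nothing in the labels makes the replicate numbers pairs. The log2 fold change was below 0 in 6 of the 9 and above 0 in 3. Under TMM its median was −0.11 and its median size 0.18, beside a median of 0 and a median size of 0.086 over all genes tested. With library totals alone in place of TMM, the median of all genes moved to −0.424, and 6 of the 9 lay below that median and 3 above it. In 4 of the 9 genes the genotypes did not overlap, 3 lower and 1 higher in delta4dus, where 19.7% and 19.0% of all genes did not overlap in the same directions.

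Of the heat shock protein genes, hsp9 was lower in both delta4dus libraries, while the values of hsp16 overlapped. The gene hsp9 encodes a heat shock protein, annotated at the plasma membrane, and lies (SPAP8A3.04c) on chromosome I from 5319957 to 5320676 on the minus strand (ASM294v2). Its normalised counts were 12869.5 and 14107.8 for wild-type, against 8524 and 8488 for delta4dus. Both delta4dus libraries lay well below both wild-type libraries and close to each other. The means were 13489 ± 876 and 8506 ± 25.3 (SD, n = 2 libraries each), which is 1.59-fold lower in delta4dus, and the log2 fold change of −0.67 had an SE of 0.0639 and a 95% interval from −0.83 to −0.51. Its adjusted p was 0.0786 by edgeR and 2.57e-12 by DESeq2. In the authors' deposited table the value was −0.66 with an adjusted p of 4.01e-12. Of the coding genes tested, 1.32% had a log2 fold change at least as large in size.

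Upstream of hsp9 the non-coding RNA gene SPNCRNA.1071 runs on the same strand and shares its last 64 bases with the first bases of hsp9, so reads there may be counted at both. The printed bases before hsp9 lie inside SPNCRNA.1071. Its normalised counts were 1267.7 and 1322 for wild-type, against 721 and 814 for delta4dus, so it was lower in the mutant in both libraries as well. Its log2 fold change was −0.76 (SE 0.0880, edgeR adjusted p = 0.188). How many of its reads come from the shared bases was not tested.

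The other heat shock protein gene of the set, hsp16 (SPBC3E7.02c, chromosome II, 2660139 to 2660992, minus strand), encodes an alpha-crystallin type chaperone and holds the heat shock word. Its normalised counts were 4913 and 4539.8 for wild-type, against 4574 and 4165 for delta4dus. The second wild-type library lay below the first delta4dus library, so the groups overlapped. The log2 fold change was −0.11, with a 95% interval from −0.29 to 0.06 and an edgeR adjusted p of 0.764. The interval of hsp16 does not reach that of hsp9, but the difference between the genes was not tested.

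Among the peroxide-removing enzymes, gpx1 had slightly lower values in both delta4dus libraries than in both wild-type libraries. It encodes a glutathione peroxidase and lies (SPBC32F12.03c) on chromosome II from 2788863 to 2789614 on the minus strand. Its normalised counts were 4166 and 3854 for wild-type, against 3334 and 3228.5 for delta4dus. The groups did not overlap, and the means of 4010.0 ± 221 and 3281 ± 74.8 (SD, n = 2 libraries each) differ by 1.22-fold. The log2 fold change of −0.29 (SE 0.0604, 95% interval −0.44 to −0.14) gave adjusted p-values of 0.52 by edgeR and 0.0913 by DESeq2. In the authors' deposited table its adjusted p was 0.118.

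For ctt1 the libraries of 1 genotype differed more than the genotypes did. It encodes catalase, which splits hydrogen peroxide, and lies (SPCC757.07c) on chromosome III from 56654 to 58865 on the minus strand. Its counts before scaling were 3187 and 1501 for wild-type, against 3361 and 1747 for delta4dus. After scaling they were 3214 and 1806 for wild-type, against 2531 and 1912 for delta4dus, so both delta4dus values lay between the wild-type ones. The wild-type libraries thus differed by 1.78-fold and the delta4dus libraries by 1.32-fold, while the log2 fold change between genotypes was −0.18 with a 95% interval from −1.45 to 1.10 (edgeR adjusted p = 0.941). That interval leaves room for a change of more than 2-fold in either direction. Its sign turned without the first wild-type library (0.30) and without the second delta4dus library (0.01). Of 5059 coding genes, 74 (1.46%) differed as much between the wild-type libraries.

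The genes for osmolytes and trehalose were at nearly the same level in both genotypes. The gene gpd1 (SPBC215.05, chromosome II, 4035580 to 4037342, plus strand), for the glycerol-3-phosphate dehydrogenase that makes glycerol under osmotic stress, had normalised counts of 48933 and 52049 for wild-type, against 50867 and 50762 for delta4dus. Both delta4dus libraries lay between the wild-type ones. Its log2 fold change was 0.01, with a 95% interval from −0.22 to 0.24 (edgeR adjusted p = 0.991). It carries 2 copies of TGACGT and 1 of TTACGTAA in the bases shown above.

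The trehalose genes act in opposite senses, tps1 (SPAC328.03, chromosome I, 3479098 to 3481305, plus strand) encoding the synthase of trehalose-6-phosphate and ntp1 (SPBC660.07, chromosome II, 206580 to 209641, plus strand) the neutral trehalase that splits the sugar. Normalised counts of tps1 were 12044 and 11902 for wild-type, against 12181 and 11284 for delta4dus. Those of ntp1 were 6650.1 and 5719 for wild-type, against 6905 and 5623 for delta4dus. In both genes the first delta4dus library was the highest of the 4 and the second the lowest, so the groups overlapped. The log2 fold changes were −0.03 for tps1 (95% interval −0.18 to 0.12) and 0.02 for ntp1 (−0.34 to 0.38), with edgeR adjusted p of 0.935 and 0.989. The first 63 bases of tps1 as annotated in the deposited table are also the end of dbl4 on the same strand, whose log2 fold change was −0.02.

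Of the metal and ion genes, zym1 had lower values and cta3 higher values in both delta4dus libraries than in both wild-type libraries. The gene zym1 (SPAC22H10.13, chromosome I, 2381690 to 2382200, plus strand) encodes a metallothionein, a small protein that binds zinc and cadmium. Its counts before scaling were 422 and 257 for wild-type, against 344 and 178 for delta4dus. Normalised, they were 426 and 309 for wild-type, against 259 and 195 for delta4dus, so the groups did not overlap but the gap between them was smaller than the spread within wild-type. The means were 367 ± 82.3 and 227 ± 45.4 (SD, n = 2 libraries each), which is 1.62-fold lower in delta4dus. The log2 fold change of −0.69 (SE 0.230, 95% interval −1.27 to −0.12) gave adjusted p-values of 0.626 by edgeR and 0.45 by DESeq2. In the authors' deposited table its adjusted p was 0.523. Its log2 fold change was close to that of hsp9, while its SE was larger (0.230 against 0.0639).

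The gene cta3 (SPBC839.06, chromosome II, 607214 to 611989, plus strand) encodes a P-type ATPase of cation transport and is known as a salt-induced target of Sty1 and Atf1. It had counts of 217 and 132 for wild-type, against 768 and 331 for delta4dus. Normalised, they were 219 and 159 for wild-type, against 578 and 362 for delta4dus, so both mutant libraries lay above both wild-type libraries, and the mutant libraries differed by 1.60-fold from each other. The means were 189 ± 42.4 and 470.3 ± 153 (SD, n = 2 libraries each), a 2.49-fold difference. The log2 fold change of 1.32 (SE 0.293, 95% interval 0.56 to 2.08) gave adjusted p-values of 0.561 by edgeR and 0.0133 by DESeq2. In the authors' deposited table it was 1.32 with an adjusted p of 0.0103. Only 14 of the 5059 coding genes tested (0.277%), cta3 among them, had a log2 fold change as large in size.

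**Figure D2:**
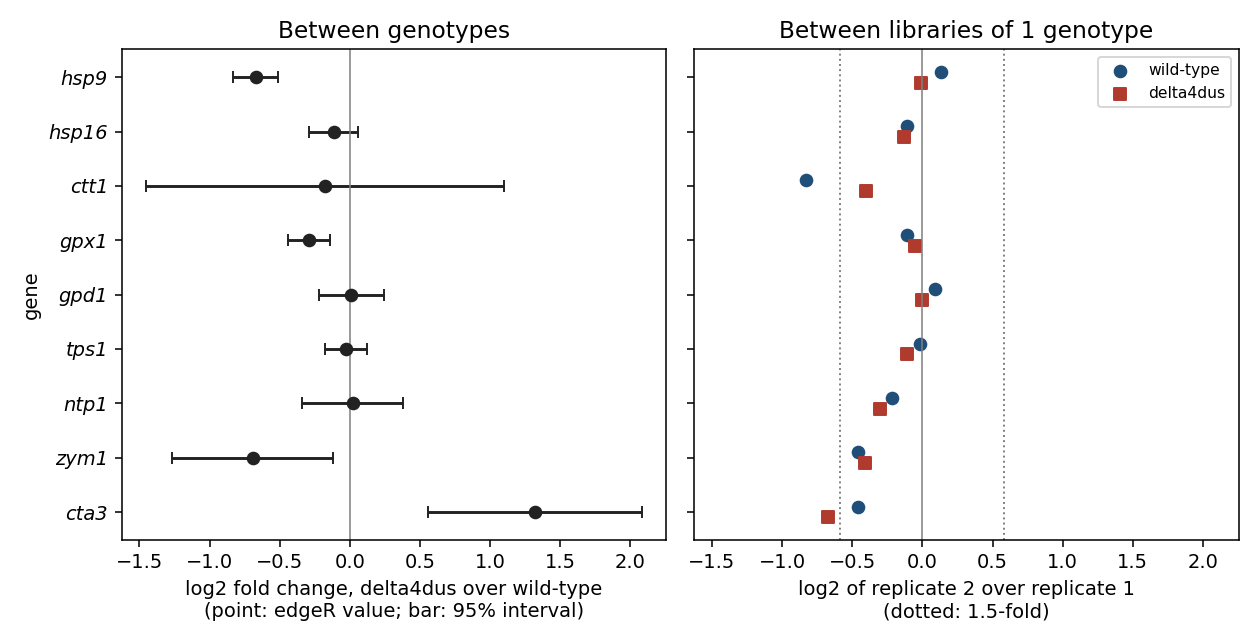
Left, log2 fold change of delta4dus over wild-type for each gene with its 95% interval from edgeR; right, log2 of replicate 2 over replicate 1 within each genotype, with dotted lines at 1.5-fold. The interval of hsp9 is narrow and below 0, that of cta3 is wide and above 0, and ctt1 in wild-type and cta3 in delta4dus pass the 1.5-fold line.

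The cta3 locus also carries transcripts of both strands. The non-coding RNA gene SPNCRNA.1374 (608000 to 611638, minus strand) lies wholly inside cta3 on the opposite strand and covers 76.2% of it. It held 843 and 786 counts for wild-type, against 1269 and 935 for delta4dus, more than cta3 in each library. The counting options are not stated. Counting that ignored the strand could not give SPNCRNA.1374 more counts than cta3, since all its bases also lie in cta3. How many reads from the antisense strand were still counted at cta3 was not tested. Normalised per kilobase, SPNCRNA.1374 was at 234 and 260 for wild-type, against 263 and 281 for delta4dus, and cta3 at 45.8 and 33.3, then 121 and 75.8. The count of cta3 over that of SPNCRNA.1374 was 0.257 and 0.168 for wild-type, against 0.605 and 0.354 for delta4dus, a ratio that does not depend on library scaling. The antisense gene itself had a log2 fold change of 0.14 (95% interval −0.09 to 0.37, edgeR adjusted p = 0.771). Upstream, SPNCRNA.319 (606728 to 607395, plus strand) shares 182 bases with the start of cta3 on its strand and spans the bases printed above. It held 3 counts in each wild-type library and 14 in each delta4dus library, too few for a firm value (log2 fold change 1.91, SE 0.608, edgeR adjusted p = 0.626), and some of its reads may be those of cta3.

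**Figure D3:**
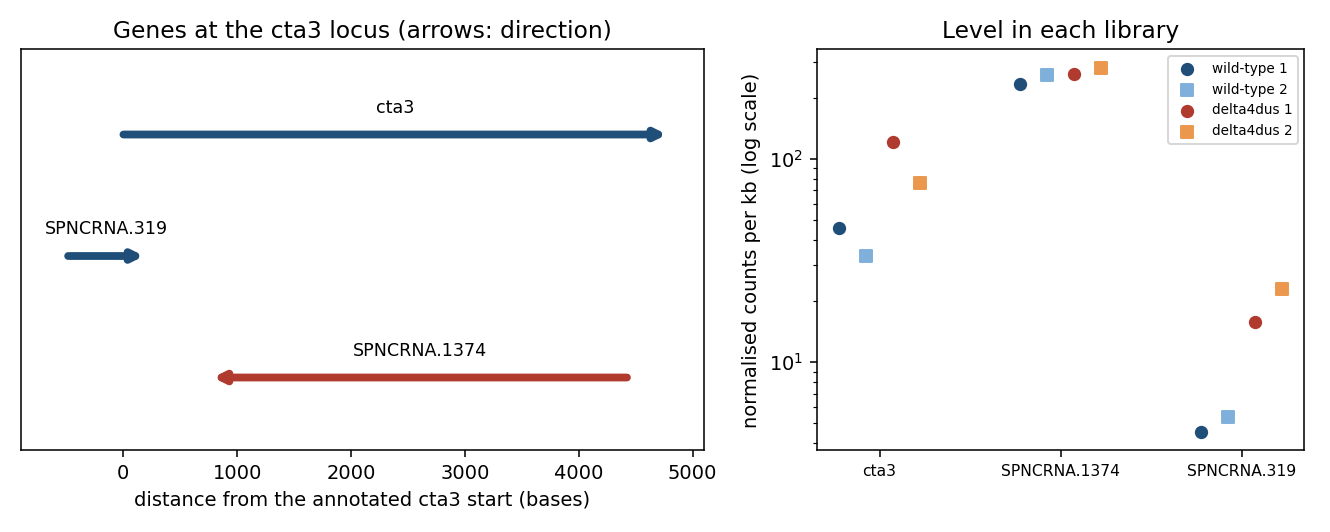
Left, the annotated genes at the cta3 locus by distance from the cta3 start, with arrows for direction; right, their normalised counts per kilobase in each library on a log axis. The antisense gene SPNCRNA.1374 stays between 234 and 281 in all libraries, while cta3 is higher in both delta4dus libraries.

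By a measure over 4 libraries only, the coding genes with the profile nearest to hsp9 were SPAC212.01c, a gene of a family particular to this yeast, SPCC330.03c, annotated as a cytochrome b5 reductase, and fit1, annotated in a lipid storage family. The measure was the root-mean-square difference of centred log2 normalised counts among 4635 coding genes averaging 1 CPM or more, and it was 0.0761, 0.102 and 0.144 for these genes. Their log2 fold changes were −0.54, −0.49 and −0.38 and none passed edgeR's test. Nearest to cta3 were urg1, annotated as a GTP cyclohydrolase, urg2, annotated as a putative uracil phosphoribosyltransferase, and the uncharacterised SPBC30B4.09, at 0.259, 0.338 and 0.392. Normalised counts of urg1 were 2386 and 1329.6 for wild-type, against 4109.9 and 2514 for delta4dus. Its log2 fold change was 0.83, with an edgeR adjusted p of 0.777. All of these genes were picked by likeness over the same 4 libraries. A library order or sign of change shared with hsp9 or cta3 therefore follows from the choice and is not a separate result.

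Differences between libraries of 1 genotype were large for some of the 9 genes and small for others. Counting differences of at least 1.5-fold, ctt1 differed between the wild-type libraries, where 7.97% of all genes did, and cta3 between the delta4dus libraries, where 8.25% did. The log2 ratio of replicate 2 to replicate 1 was −0.83 in wild-type and −0.40 in delta4dus for ctt1. It was −0.46 and −0.67 for cta3 and −0.46 and −0.41 for zym1. A difference as large as that of zym1 was seen in 3.99% of coding genes between the wild-type libraries and in 4.63% between the delta4dus libraries, and as large as that of cta3 in 3.97% and 1.56%. For ntp1 the ratios were −0.22 and −0.30. At the other end, gpd1 (0.09 and 0.00), gpx1 (−0.11 and −0.05), tps1 (−0.02 and −0.11), hsp16 (−0.11 and −0.13) and hsp9 (0.13 and −0.01) stayed within 0.13. Replicate 1 was the higher library in both genotypes for 7 of the 9 genes, where 35.5% of coding genes had that pattern. The labels do not say what libraries of the same number share.

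**Figure D4:**
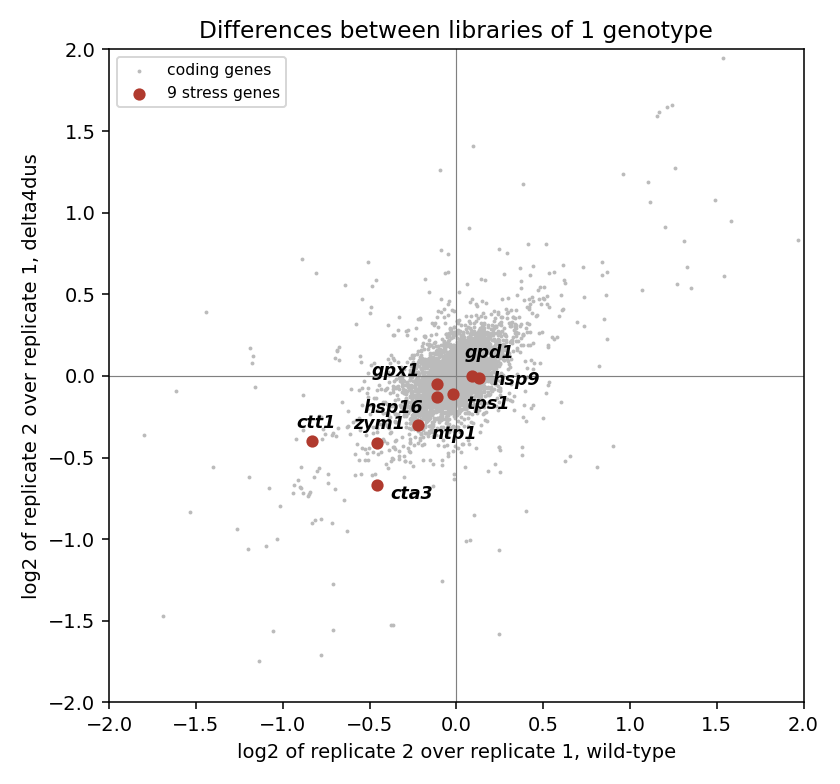
Log2 of replicate 2 over replicate 1 in wild-type (horizontal) and delta4dus (vertical) for coding genes in grey, of which 13 lie outside the axes, and for the 9 stress genes in red. The genes ctt1, zym1, cta3 and ntp1 lie toward the lower left, with the first library higher in both genotypes, and the other 5 lie near the origin.

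The regulators upstream of these genes were at nearly equal levels. None of 18 genes of the Sty1 pathway passed edgeR's test in either direction, where 5 of all 6813 genes tested (0.0734%) did. Their log2 fold changes ran from −0.19 to 0.16 with a median of −0.01, 8 above and 10 below 0. The largest in size were −0.19 for pcr1, the partner of Atf1, 0.16 for pyp2, a phosphatase of Sty1, 0.16 for csx1, an RNA-binding protein that stabilises the atf1 message, and −0.13 for mcs4, a response regulator. The kinase gene sty1 was at −0.10. Nor did any of 11 other regulators pass, with values from −0.17 for cgs1, the regulatory subunit of protein kinase A, to 0.11 for pmk1, a kinase of the cell integrity pathway. The heat shock factor gene hsf1 was at −0.08 and pap1 at −0.05. These are levels of transcripts and do not report the activity of the proteins.

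Other genes known to be induced by stress did not pass edgeR's test either, which 0.0734% of all genes passed. Of 21 tested, 9 lay above 0 and 12 below, with a median of −0.03. The But2 family gene SPAC27D7.09c had normalised counts of 4269 and 4797 for wild-type, against 2075 and 2481 for delta4dus, with no overlap. Its log2 fold change was −0.99 (SE 0.109); edgeR gave an adjusted p of 0.224 and DESeq2 one of 5.12e-10. The uncharacterised gene SPBC1271.08c lay at 0.77 with an SE of 0.540, as its second delta4dus library (4151) was far above the first (1835). The tspO-like gene tsp0 lay at −0.60 and rds1 at −0.39, both with groups that did not overlap.

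Genes with roles next to those of the 9 were examined by list. None passed edgeR's test in either direction, where 0.0734% of all genes did. The signs below are relative to TMM scaling; with library totals alone 1 of the 8 cation transport genes stayed above 0, and all 8 stayed above the shifted median of all genes. Of 18 antioxidant genes, 16 lay below 0, with a median of −0.08. The largest in size with a mean of at least 1 CPM were −0.36 for the glutathione S-transferase gene gst2, −0.33 for the glutaredoxin gene grx1, −0.27 for grx3 and −0.22 for sod1, the copper-zinc superoxide dismutase. As in ctt1, the libraries of gst2 differed within a genotype, at 3426 and 1674 for wild-type, against 2638.5 and 1319 for delta4dus. Of 9 other trehalose and glycerol genes the median was 0, and the largest were −0.73 (SE 0.869) for the dihydroxyacetone kinase gene dak2 and 0.18 for tps2. All 8 other cation transport genes lay above 0, with a median of 0.04; pmc1, a vacuolar calcium pump, was at 0.14 and pmr1, a calcium pump of the secretory pathway, at 0.06. Of 8 metal handling genes, 6 lay above 0, with 0.37 for the copper transporter gene ctr4 and 0.21 for the zinc transporter gene zrt1. Among 6 other small heat shock and Hsp31 family genes, hsp3102 lay at 0.88 (SE 0.335, edgeR adjusted p = 0.673) and hsp20 at −0.21.

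**Figure D5:**
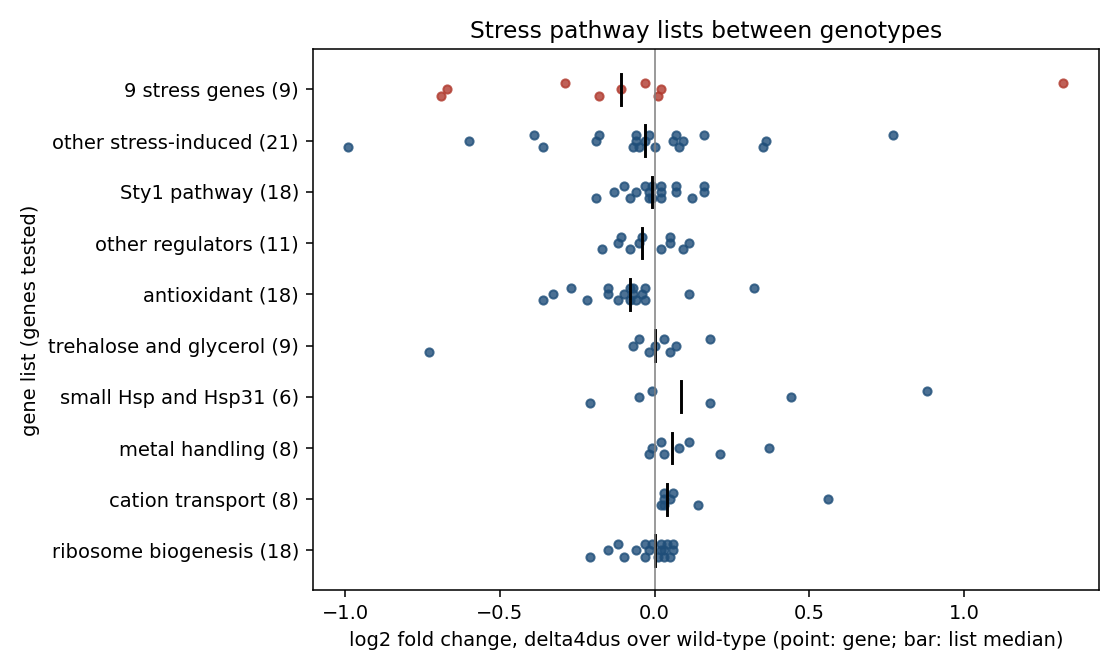
Log2 fold change of delta4dus over wild-type for each gene tested in the lists, with a bar at each list's median. The 9 stress genes run from −0.69 to 1.32, while the 18 genes of the Sty1 pathway stay between −0.19 and 0.16.

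Lists that mark the growth state of the cultures gave the setting. The 18 ribosome biogenesis genes, which fall when growth slows, had a median of 0, ran from −0.21 to 0.06, and none passed. The share of all genes that passed edgeR's test was 0.0734%. Of 12 genes of nitrogen starvation, 7 lay above 0 and none passed by edgeR. DESeq2, which called 0.802% of all genes with an adjusted p, called 1 of the 12. It was isp5, an amino acid transporter gene (log2 fold change 0.78, adjusted p = 0.014). The first library of each genotype was the higher for 8 of the 12 genes, where 2428 of all 6813 genes tested had that pattern. For ste11, the factor of sexual development, normalised counts were 3332 and 2154 for wild-type, against 2564 and 1326 for delta4dus. All 7 tested genes of the M mating type lay below 0 (median −0.61), as did 3 of the 4 tested P genes (median −0.16), and none of either list passed by edgeR. DESeq2 called 2 of the 7 tested M genes, where it called 0.802% of all genes. They were the pheromone gene mfm2 (log2 fold change −1.50, adjusted p = 2.44e-07) and the mating-type regulator gene mat1-Mc (−0.61, 0.0167). The part of growth state or mating type in the values of the stress genes was not tested.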

How the data were processed

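The deposited table holds raw read counts per gene for 4 libraries, and no count column lacked a sample. Per the submitters' processing notes, Trimmomatic 0.36, TopHat2, featureCounts and build ASM294v2 were used; how features were counted is not stated in these sources. The authors' own comparison gives a mean normalised signal, a log2 fold change, a test score and p-values, and DESeq2 is named in the notes. Reads carry no molecular identifiers, so intervals from counting alone would be too small.

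Counts were tested with edgeR 4.0.16 (R 4.3.3). The filterByExpr filter (minimum count 10, minimum total 15) left 6813 of 7049. Scaling was by TMM, with genotype as the model term, a robust quasi-likelihood F test (two-sided, 2 residual degrees of freedom), and Benjamini-Hochberg adjustment over all genes tested. Intervals are 95% intervals. Log2 ratios between libraries used a pseudocount of 0.5 on normalised counts. DESeq2 1.42.0 was an alternative. The fit was also run on simulated counts with known changes, drawn independently for each library. How often it calls changes of the sizes described here is not given. Symbols came from RefSeq (ASM294v3) for 6844 of 7049 identifiers; coordinates of genes are those of the deposited table and those of printed sequences are from ASM294v3. The members, lists and rules were chosen with earlier results of these data known. Named genes were the 9 genes, the deleted genes, overlapping genes, up to 4 per list by size of change among those averaging 1 CPM or more, and the 3 nearest profiles of hsp9 and cta3. The 9 were named at any level, and cta3 (0.919 CPM) and zym1 (0.829 CPM) averaged below that floor. The genes sty1, hsf1, pap1 and isp5 were named after their values were seen.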

Additional observations from a re-analysis of the deposited data

How the results depend on the processing

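With edgeR, 5 genes and 0 of the 9 stress genes were called. DESeq2 called 52 genes and 2 of the 9 (hsp9, cta3), and an edgeR fit with a replicate block called 825 genes (12.1%) and 4 of the 9 (hsp9, cta3, zym1, gpx1); the cause was not tested. Same-numbered libraries deviated together across genes (Pearson r = 0.623), but nothing in the labels makes the numbers pairs. Leaving out 1 library gave 3 to 5 calls over all genes, with 3 without the second wild-type library, and 0 of the 9 genes each time. In these fits 1 genotype has a lone library, assumed to vary like the other genotype, so they do not show that the calls are stable. The log2 fold changes ranged over all settings from −1.08 to −0.60 for hsp9, 0.93 to 1.61 for cta3, −1.08 to −0.44 for zym1 and −0.71 to −0.23 for gpx1, always with the same sign. Signs turned for genes near 0: with 1 library left out ctt1 ran from −0.53 to 0.30 (0.01 without delta4dus replicate 2), gpd1 from −0.03 to 0.05, tps1 from −0.09 to 0.03 and ntp1 from −0.14 (−0.09 with the second wild-type library left out) to 0.16. With library totals alone gpd1 was at −0.41 and ntp1 at −0.37, where the median of all genes was −0.424; differences of at least 1.5-fold between libraries then numbered 3 genes in wild-type and 9 in delta4dus, against 1 and 1 with TMM. The edgeR test had 2 residual degrees of freedom.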
